A study of Homo sapiens with 2 samples.

Results

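The immune checkpoint ligands described here are 8 genes, CD274, PDCD1LG2, CD276, VTCN1, NT5E, CD47, PVR and LGALS9, taken by symbol from the 27685 genes of the deposited gene table, with their 26 transcripts of the 63714 listed. RNA was sequenced from 1 mRNA library of untreated H2087 cells and 1 of untreated H596 cells, both established cell lines labelled as lung adenocarcinoma and grown in the same medium. The authors estimated abundances with StringTie on hg19. For each gene and transcript they deposited estimated counts and FPKM, a level that takes transcript length and library size into account. Because FPKM is per length, the levels of different genes can be set side by side.

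With 1 library of each line, the values carry no replicate check, and the lines were compared without any test. The intervals given are exact 95% Poisson intervals of the estimated counts, carried over to FPKM, and they cover counting error only. The estimated counts summed to 46961500 in H2087 and 55387847 in H596. All 8 epithelial markers reached an FPKM of 1 in both libraries. By the 2-fold rule given below 4 were lower and 1 higher in H596, beside 14.2% and 18.2% of all genes tested. EPCAM was at 375 in H2087 and 65.0 in H596, KRT8 at 2493 and 536, KRT18 at 3607 and 234, and CLDN4 at 158 and 72.6. KRT19 was the higher one, at 561 and 2183. CDH1 (52.3 and 59.6), KRT7 (791 and 608) and ESRP1 (47.8 and 54.5) were not called. Of 11 lung adenocarcinoma markers, 6 reached it in H2087, among them NKX2-1 (109.99), NAPSA (21.9) and SFTPA1 (82.9), whereas none reached 1 in H596, where NKX2-1 was at 0.508 and SFTPA1 had 0 counts. Of 10 squamous markers, 8 reached an FPKM of 1 in H596, among them TP63 (55.2) and KRT5 (106), and 2 did in H2087. The H596 library therefore went against its labelled tumor type by these markers, and it is called by its cell line name below. Of 12 fibroblast and endothelial markers 4 had a mean FPKM of at least 1. Of these, 2 were higher and 2 lower in H596, beside 18.2% and 14.2% of all genes tested. The part of this difference in the results below was not tested.

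Immune checkpoint ligands are surface or secreted proteins through which a cell dampens the immune cells that touch it. CD274 and PDCD1LG2 encode PD-L1 and PD-L2, the ligands of the T cell receptor PD-1, and CD276 and VTCN1 encode B7-H3 and B7-H4 of the same B7 family. NT5E encodes CD73, which makes adenosine outside the cell, and CD47 engages SIRP alpha on macrophages. PVR encodes CD155, which binds TIGIT, CD96 and CD226 on T and NK cells, and LGALS9 encodes galectin 9, a ligand of TIM-3.

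The ligands were present in different proportions in the cell lines. In H2087 the highest was NT5E, followed by CD276, and PVR and CD47 came next with intervals that overlapped. CD274 and LGALS9 followed, VTCN1 was below an FPKM of 1, and PDCD1LG2 was the lowest. In H596 CD276 and VTCN1 led, with overlapping intervals, followed by CD47, LGALS9, PVR, NT5E and CD274, and PDCD1LG2 was again the lowest. The other neighbours in either order had intervals that did not overlap. The summed FPKM of the 8 genes was 119 in the H2087 library and 189 in the H596 library. NT5E made up 29.99% of the former and CD276 25.99% of the latter.

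**Figure D1:**
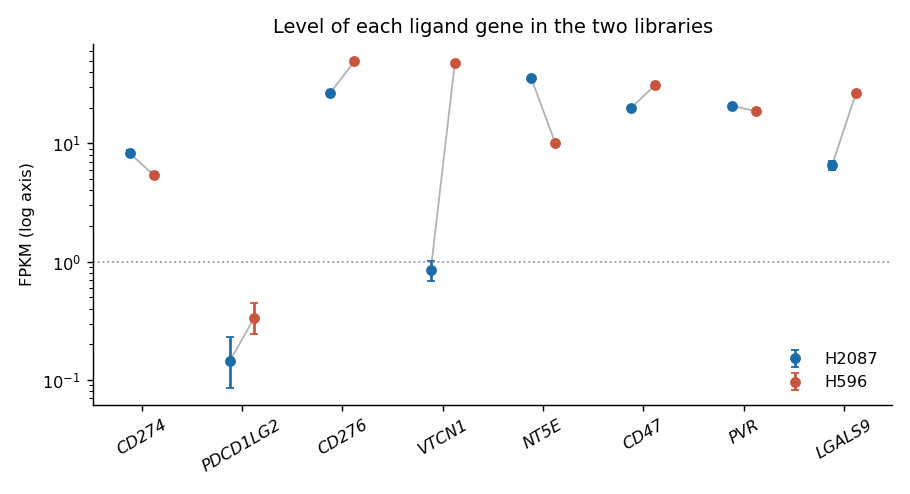
FPKM of each ligand gene (log axis) in the H2087 library (blue) and the H596 library (red); bars are exact 95% Poisson intervals, the grey line joins the values of 1 gene and the dotted line marks an FPKM of 1. VTCN1 lies at 0.843 and 47.5 and LGALS9 at 6.51 and 26.8, NT5E is lower in H596, and PDCD1LG2 is below 1 in both.

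A gene was called when log2(FPKM + 1) differed by at least 1, that is at least 2-fold on that scale, among the 13048 genes whose mean FPKM was 1 or more. By this rule 32.4% of all genes were called, 18.2% higher and 14.2% lower in H596. Of the 8 ligand genes 7 passed the filter, PDCD1LG2 being the exception, and VTCN1 passed it through H596 alone. VTCN1 and LGALS9 were called higher in H596, NT5E was called lower, and CD274, CD276, CD47 and PVR were not called. Read against that background, 3 of 7 is no result about the ligands as a group. At a 4-fold limit, which 5.36% of all genes passed as higher and 4.77% as lower, VTCN1 was called higher and 0 ligand genes lower. The median difference of the 7 genes was 0.61, beside 0.12 over all genes tested. In bulk libraries, fewer cells that express a gene and less of its RNA per cell cannot be told apart. By counting error alone, the interval of the ratio excluded 1 for all 8 genes, which at this depth separates small differences and says nothing about the variation between cultures.

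**Figure D2:**
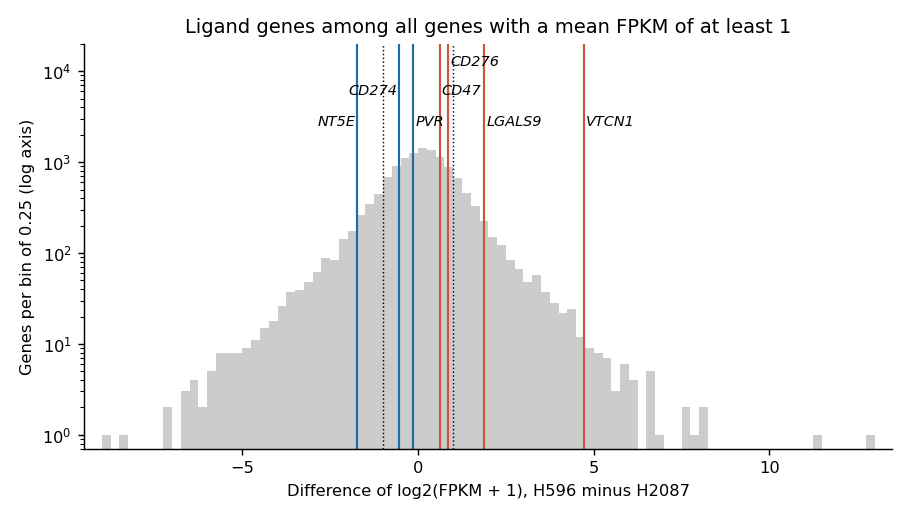
Histogram of how far log2(FPKM + 1) in H596 lay above or below that in H2087, over the 13048 genes that passed the filter (count axis logarithmic), with the 7 ligand genes that passed the filter as coloured lines and the 2-fold limits dotted. VTCN1, at 4.72, lies far in the right tail, and PVR, at -0.14, near the middle.

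PD-1 ligands. CD274 (gene 29126; chr9:5450503-5470567 of hg19, plus strand) had an FPKM of 8.25 (95% interval, 7.81 to 8.70) from 1336 counts in H2087 and 5.37 (5.05 to 5.71) from 1021 counts in H596. It was 1.54-fold lower in H596 (interval, 1.41 to 1.67), a difference of -0.54 on the log2(FPKM + 1) scale, which was not called. PDCD1LG2 (gene 80380; chr9:5510545-5571282, plus strand) had an FPKM of 0.145 (0.0848 to 0.233) from 17 counts in H2087 and 0.335 (0.245 to 0.447) from 46 counts in H596. The FPKM of CD274 was thus 56.7 times that of PDCD1LG2 in H2087 and 16.02 times in H596, so PD-L1 was the main PD-1 ligand transcript of both libraries. CD274 was a gene of middling level: of the genes that reached an FPKM of 1, 44.5% lay below it in H2087 and 28.1% in H596.

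Transcription of CD274 is known to be induced by interferon gamma through JAK kinases and IRF1, and its promoter is shown because this route acts through it. The 250 bases before the start of CD274 in the RefSeq table, on GRCh38.p14 at chr9:5450292-5450541, plus strand, are given 5′ to 3′, with matches to the core of an interferon-stimulated response element (GAAA, any 2 bases, GAAA) and to the STAT site TTCNNNGAA in capitals, both strands searched.
CD274: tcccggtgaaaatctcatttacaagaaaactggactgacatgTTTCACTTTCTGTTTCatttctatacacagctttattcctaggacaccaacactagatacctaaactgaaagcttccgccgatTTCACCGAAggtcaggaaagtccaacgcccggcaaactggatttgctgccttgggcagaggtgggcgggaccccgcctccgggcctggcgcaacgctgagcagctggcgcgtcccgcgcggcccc

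The response element core matched 2 times, on the minus strand, from 208 to 199 and from 202 to 193 bases before the start, so the matches overlap, and TTCNNNGAA matched 1 time, from 125 to 117. Of 35116 promoters of this length, 3.02% held the first motif and 6.57% the second. None of the other 6 ligand genes with a promoter in the table held either. PDCD1LG2 had no entry. A match is a description of letters and does not show binding.

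Of 18 genes of the interferon gamma and JAK-STAT route, 16 passed the filter. Their median difference was 0.65, beside 0.12 over all genes tested. Of the 16, 5 were called higher in H596 and 0 lower. They were JAK2 (FPKM 0.636 in H2087 and 8.03 in H596), a kinase of the interferon gamma receptor, IRF1 (8.92 and 51.8), a transcription factor downstream of it, IFNGR1 (14.0 and 67.2), a chain of the receptor, TYK2 (7.75 and 31.8), a kinase of related receptors, and PTPN2 (21.0 and 52.7), a phosphatase that restrains them. IFNG itself had 0 counts in both. Over all genes tested, 18.2% were called higher, 14.2% lower and 32.4% in either direction. The route as a group was not tested, and 5 of 16 called higher is not read as a result about it. Of 16 genes that act on PD-L1 protein, all passed the filter. Of these, 1 was called higher and 4 lower, beside 18.2% and 14.2% of all genes tested. CMTM6, which protects PD-L1 from degradation, was at 28.4 in H2087 and 67.6 in H596, and its relative CMTM4 at 18.5 and 6.85. Among those lower in H596 was also CDK4, a cell cycle kinase that acts on PD-L1 turnover, at 961 and 53.97.

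CD274 and PDCD1LG2 are neighbours, 40.0 kb apart, and JAK2 lies at -322 kb from CD274. Of 12 tested genes within 1 Mb of CD274, 7 were called higher in H596 and 1 lower, beside 18.2% and 14.2% of all genes tested. Their median difference was 1.15, beside 0.12 over all genes tested. The nearest on each side were PLGRKT, at -0.83, and RIC1, at 1.39. ERMP1, RIC1, KIAA2026, AK3, PLPP6 and CDC37L1 were called higher together with JAK2, and SLC1A1 was called lower. CD274 and PLGRKT were lower in H596, though neither was called, within a stretch in which most tested genes were higher.

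B7 family members. VTCN1 (gene 79679; chr1:117686209-117753582, minus strand) had an FPKM of 0.843 (0.691 to 1.02) from 107 counts in H2087 and 47.5 (46.4 to 48.7) from 7103 counts in H596. It was 56.4-fold higher in H596 (interval, 46.6 to 68.9), a difference of 4.72, and 0.383% of all tested genes differed by more in that direction. In H596 it lay above 87.4% of the genes that reached an FPKM of 1. CD276 (gene 80381; chr15:73976622-74006859, plus strand) was high in both libraries. Its FPKM was 26.9 (26.1 to 27.7) from 4272 counts in H2087 and 49.2 (48.2 to 50.2) from 9274 counts in H596, 1.83-fold higher in H596 (1.77 to 1.90), a difference of 0.85 that was not called. When FPKM was converted to TPM, the difference of CD276 became 1.04 and passed the limit.

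The promoters of VTCN1 and LGALS9, the ligand genes called higher in H596, are shown because they held the fewest CpG dinucleotides among the ligand genes. They are the 250 bases before the start in the RefSeq table, on GRCh38.p14, VTCN1 at chr1:117210928-117211177 on the minus strand and LGALS9 at chr17:27630938-27631187 on the plus strand, with each CG in capitals.
VTCN1: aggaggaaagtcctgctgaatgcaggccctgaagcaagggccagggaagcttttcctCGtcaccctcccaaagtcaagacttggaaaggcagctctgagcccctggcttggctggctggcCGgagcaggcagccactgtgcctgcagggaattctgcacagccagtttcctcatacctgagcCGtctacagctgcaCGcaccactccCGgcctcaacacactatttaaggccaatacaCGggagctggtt
LGALS9: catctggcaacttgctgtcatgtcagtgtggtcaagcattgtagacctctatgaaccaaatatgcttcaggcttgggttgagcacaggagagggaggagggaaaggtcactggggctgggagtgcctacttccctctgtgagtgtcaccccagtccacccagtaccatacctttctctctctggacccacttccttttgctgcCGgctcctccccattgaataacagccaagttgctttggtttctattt

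VTCN1 held 6 CG and LGALS9 1, beside a median of 11 over all 35116 promoters; 38.1% and 6.06% of promoters held fewer. CD274 held 16, PVR 27, NT5E 28, CD47 39, and the 2 promoters listed for CD276 held 29 and 23. This is a description of the sequences. No DNA methylation was measured in these files.

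Outside the 8 genes, 35 related surface ligands and immune-modulating enzymes were looked up. Of these 18 passed the filter, 8 were called higher and 4 lower in H596, beside 18.2% and 14.2% of all genes tested. Their median difference was 0.79, beside 0.12 over all genes tested. CD24, a ligand of SIGLEC10 that signals against phagocytosis, was at an FPKM of 23.7 in H2087 and of 401.95 in H596. VSIR, which encodes VISTA, was at 0.999 and 21.6, ICOSLG, the ligand of ICOS, 2.02 and 7.78, and IDO1, which breaks down tryptophan, 1.04 and 9.23. BTN3A1, a butyrophilin that gamma delta T cells respond to, was at 6.48 and 19.5, and its relatives BTN2A1 and BTN3A3 were 2.63- and 2.65-fold higher. TNFRSF14, the ligand of BTLA, was at 2.44 and 7.54. Lower in H596 were HLA-G (6.07 and 0.0653), an MHC molecule that restrains NK cells and shares much sequence with other MHC class I genes, ARG2 (12.02 and 1.09), an arginase, TNFSF9 (4.42 and 0.611), which encodes the costimulatory ligand 4-1BBL, and NCR3LG1 (3.47 and 0.378), a ligand of NK cells. CD80, HHLA2 and CD200 had 0 counts in both libraries.

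Transcripts of the B7 genes. VTCN1 was listed with 5 transcripts. In H2087 all 107 counts were given to NM_024626, and in H596 this transcript held 89.6% of the FPKM of the gene, with NR_045603 at 6.22%, NM_001253850 at 3.28% and NM_001253849 at 0.884%. NM_001253850 is 348 bases shorter than NM_024626, which equals 1 coding exon, exon 3 of 6, at chr1:117699196-117699543. CD276 was mostly NM_001024736, the form with 4 immunoglobulin domains, at 87.1% in H2087 and 84.6% in H596. NM_025240, the form with 2 such domains, is 654 bases shorter, which equals coding exons 4 and 5 of 10, and it held 12.9% and 8.85%. CD274 was mostly NM_014143, the full-length form, at 83.1% in H2087 and 78.5% in H596. Its form NM_001267706 is 342 bases shorter, which equals coding exon 3 of 7 at chr9:5457079-5457420. That form had 41 counts in H596, 4.02% of the gene's counts (exact 95% interval, 2.90 to 5.41). In H2087 it had 0 counts (0 to 0.276%). StringTie estimates how reads divide among transcripts with shared exons, and the error of that step is not in these intervals.

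**Figure D3:**
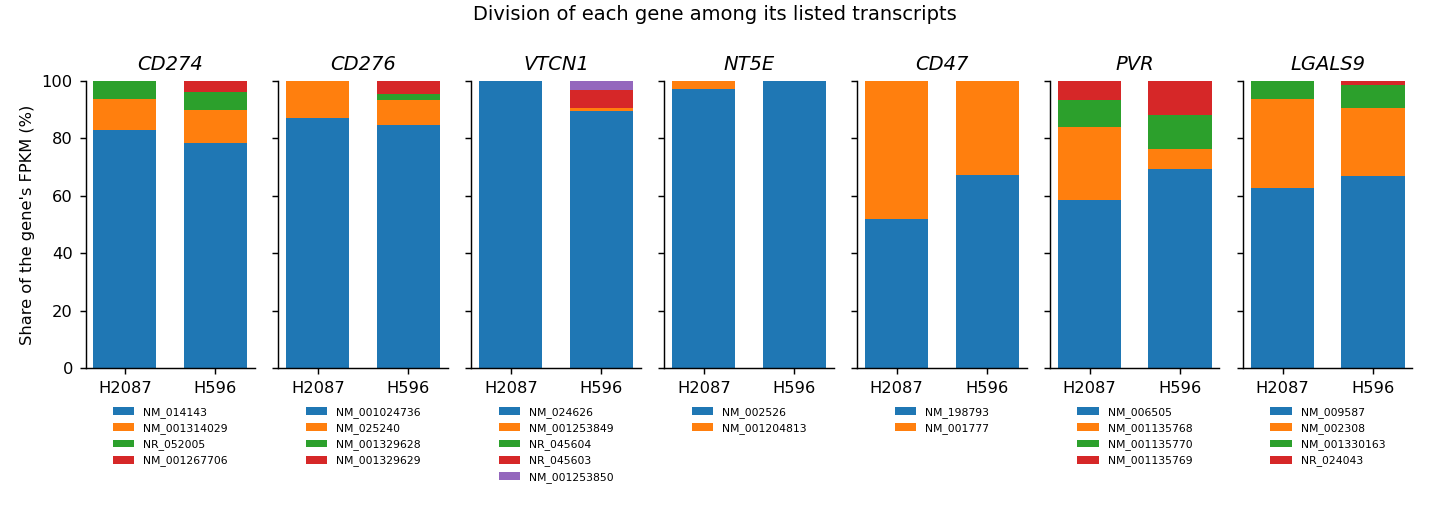
Share of each gene's FPKM (percent) given to each of its listed transcripts in H2087 and H596, for the 7 ligand genes with more than 1 transcript. The leading transcript is the same in both libraries for all 7; CD47 (NM_001777, 48.2% and 32.7%) and PVR (NM_001135768, 25.5% and 6.88%) show the widest shifts between the libraries.

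Adenosine. NT5E (gene 4907; chr6:86159302-86205509, plus strand) had an FPKM of 35.7 (34.9 to 36.6) from 6961 counts in H2087 and 10.1 (9.69 to 10.5) from 2332 counts in H596. It was 3.54-fold lower in H596 (interval, 3.38 to 3.71), a difference of -1.73. Of the genes that reached an FPKM of 1, 82.6% lay below NT5E in H2087 and 46.8% in H596. It has 2 listed transcripts, NM_002526 and the shorter NM_001204813, which lacks 150 bases. These equal coding exon 7 of 9, at chr6:86200226-86200375 of hg19 on the plus strand, given here from the GRCh37 reference because only H2087 had counts for the form without it.
NT5E exon 7: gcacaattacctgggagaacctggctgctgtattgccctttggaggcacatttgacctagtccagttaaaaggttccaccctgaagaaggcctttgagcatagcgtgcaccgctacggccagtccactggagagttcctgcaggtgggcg

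The form without this exon had 191 of the 6961 counts in H2087, 2.74% (exact 95% interval, 2.37 to 3.16). In H596 it had 0 of 2332 (0 to 0.158%). These counts are estimates of how reads divide between the forms, and the error of that step is not in the intervals. The full form therefore made up nearly all of the NT5E signal in both libraries.

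Of 22 genes around extracellular adenosine, 13 passed the filter. Of these, 7 were called lower in H596 and 1 higher, beside 14.2% and 18.2% of all genes tested. Their median difference was -1.52, beside 0.12 over all genes tested. The list was chosen with earlier results of these data known, and the pathway as a group was not tested. Among the lower were ADA, which deaminates adenosine, at 15.9 in H2087 and 4.87 in H596, DPP4, which anchors ADA at the surface, at 14.4 and 0.217, and PNP, which splits the product inosine, at 102 and 15.96. ADK, which phosphorylates adenosine, was at 54.6 and 29.1 and was not called. The transporters SLC29A1 (28.5 and 6.05) and SLC29A2 (50.1 and 10.1) and the receptor ADORA1 (16.6 and 0.174) were also lower, and so was ENPP3, at 2.76 in H2087 and 0 counts in H596. The receptor ADORA2B was not called, at 15.8 and 23.3. ALPL, a phosphatase that can also act on AMP, was the gene called higher, at 0.184 and 3.49. ENTPD1, which encodes CD39, the enzyme that supplies AMP to CD73 on many immune cells, had 0 and 6 counts. ADORA2A, the adenosine receptor best known on T cells, had 0 counts in both.

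Within 1 Mb of NT5E, 5 genes were tested, with a median difference of -0.10. TBX18 and SNHG5 were called higher in H596 and none lower, beside 18.2% and 14.2% of all genes tested. TBX18 had 0 counts in H2087 and an FPKM of 5.13 in H596, so it passed the filter through H596 alone. SNX14, 9.71 kb away, was at 14.7 and 13.7. The difference of NT5E was below those of all 5, and that of VTCN1 above those of its own neighbours. Of 11 tested genes within 1 Mb of VTCN1, 0 were called higher and 3 lower, beside 18.2% and 14.2% of all genes tested. The nearest, TRIM45 and MAN1A2, were at 0.58 and -0.32.

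**Figure D4:**
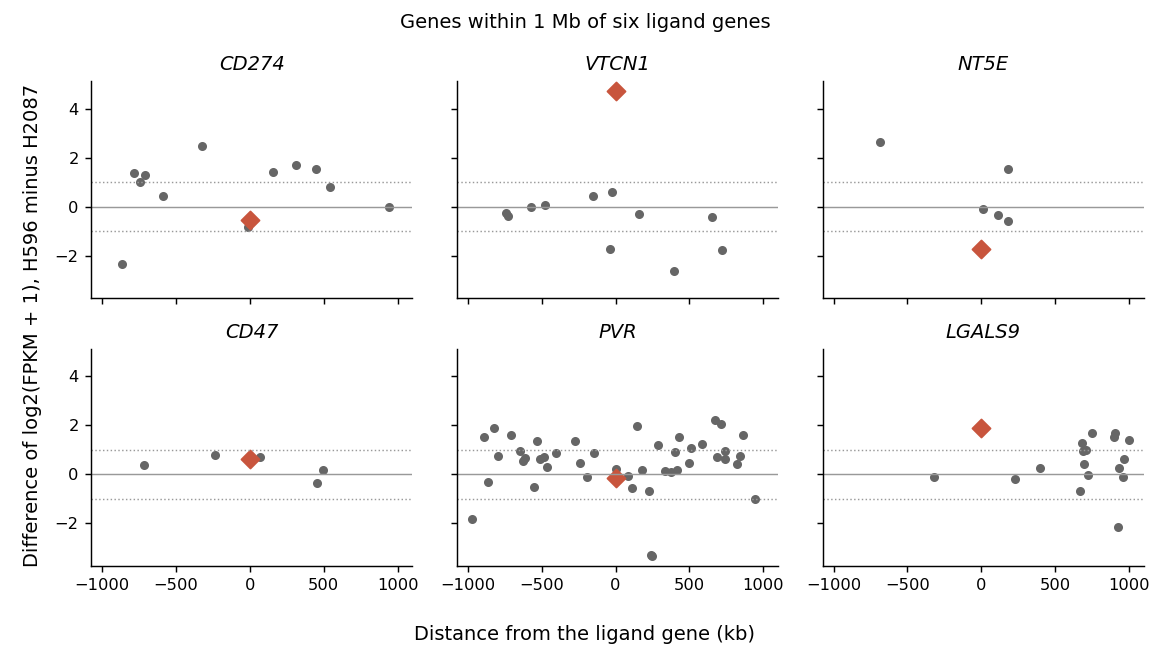
Difference of log2(FPKM + 1), H596 minus H2087, of the tested genes within 1 Mb of 6 ligand genes, against the distance in kb (grey points), with the ligand gene as a red diamond at 0 and the 2-fold limits dotted. VTCN1 (4.72) and NT5E (-1.73) lie apart from most of their neighbours, and CD47 (0.61) lies among them.

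CD47. CD47 (gene 961; chr3:107761941-107809935, minus strand) had an FPKM of 20.0 (19.5 to 20.6) from 5107 counts in H2087 and 31.2 (30.6 to 31.8) from 9394 counts in H596. It was 1.56-fold higher in H596 (interval, 1.504 to 1.611), a difference of 0.61 that was not called. Its forms differ in the length of the tail inside the cell. NM_001777 and NM_198793 differ by 58 bases, which equals exons 9 and 10 of 11, at chr3:107769425-107769449 and chr3:107768466-107768498 of hg19, both coding. They are shown on the minus strand because the shift between the libraries rests on them.
CD47 exon 9: aaagctgtagaggaaccccttaatg
CD47 exon 10: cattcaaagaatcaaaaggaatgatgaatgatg

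The form with both exons, NM_001777, was at 9.66 in H2087 and 10.2 in H596, while the form without them, NM_198793, was at 10.4 and 21.0. The difference in the gene thus lay in the form with the shorter tail. By counts, NM_001777 was 48.5% of the gene in H2087 (exact 95% interval, 47.1 to 49.9) and 32.9% in H596 (32.0 to 33.9). These exons are short beside the transcript length of 5346 bases, so few reads can tell the forms apart, and the intervals do not cover that.

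Of 17 genes listed as CD47 partners or phagocytosis signals, 11 passed the filter. Of these, 2 were called higher and 2 lower in H596, beside 18.2% and 14.2% of all genes tested. SIRPA, the receptor of CD47, had 9 counts in H2087 and 2038 in H596, an FPKM of 0.0445 and 8.81, and CD24, given above, was the other that was higher. Lower in H596 were LRP5 (92.0 and 33.8), listed although it is a WNT coreceptor, and ANXA1 (897 and 428), an annexin. With TPM, ANXA1 was not called. QPCTL, which modifies the end of CD47 that SIRP alpha binds, was at 3.85 and 4.15, and CALR, which in surface form promotes phagocytosis, at 263 and 399, and neither was called. THBS1, a secreted ligand of CD47, was at 11.6 and 7.95. None of the 5 tested genes within 1 Mb of CD47 was called, and the nearest, BBX and IFT57, were at 0.77 and 0.68, close to CD47 itself.

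PVR. PVR (gene 5817; chr19:45147098-45169428, plus strand) had an FPKM of 20.8 (20.2 to 21.3) from 5435 counts in H2087 and 18.7 (18.2 to 19.2) from 5691 counts in H596. It was 1.11-fold lower in H596 (1.07 to 1.15), a difference of -0.14, and its sign turned with TPM (0.031). By the deposited estimates, its 4 transcripts divided differently. NM_006505 encodes a form with a membrane span. NM_001135769 lacks 159 bases, which equals coding exon 6 of 8, and NM_001135768 lacks the last 135 bases of that exon and keeps the first 24. The exon, at chr19:45162010-45162168 of hg19, plus strand, holds the membrane span, and the 135 bases are in capitals.
PVR exon 6: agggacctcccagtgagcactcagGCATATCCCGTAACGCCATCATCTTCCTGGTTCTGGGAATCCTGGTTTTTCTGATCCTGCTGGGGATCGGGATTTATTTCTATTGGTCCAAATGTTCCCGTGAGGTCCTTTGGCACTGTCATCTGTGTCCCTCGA

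NM_006505 was at 12.1 in H2087 and 12.96 in H596. NM_001135768 was at 5.29 from 1462 counts in H2087 and 1.29 from 421 counts in H596, 4.11-fold lower. NM_001135769 went the other way, at 1.40 and 2.20, and NM_001135770 was at 1.94 and 2.25. By counts, NM_001135768 was 26.9% of the gene in H2087 (exact 95% interval, 25.7 to 28.1) and 7.40% in H596 (6.73 to 8.11). NM_006505, NM_001135768 and NM_001135769 differ by few bases beside their length, so few reads can tell these forms apart. The counts are estimates of how reads divide among the forms, and the intervals do not cover the error of that step. By these estimates, the gene value was lower in H596 although its leading transcript was not. The forms without the membrane span, NM_001135768 and NM_001135769, are known as soluble forms.

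Of 13 nectins and related genes, 6 passed the filter. Of these, 4 were called higher and 1 lower in H596, beside 18.2% and 14.2% of all genes tested. NECTIN1, NECTIN3 and NECTIN4, adhesion molecules related to PVR, were at 9.90, 2.11 and 6.53 in H2087 and at 117, 17.8 and 22.0 in H596. CADM4, a nectin-like molecule, was at 0.677 and 7.90, while CADM1, another, was at 1.51 and 0 counts and did not pass the filter. AFDN, the adaptor that links nectins to actin, was at 36.7 and 17.4 and was called lower, though not with TPM. NECTIN2, which like PVR binds TIGIT and CD226, was at 16.7 and 19.0 and was not called. Of 45 tested genes within 1 Mb of PVR, 13 were called higher and 4 lower, beside 18.2% and 14.2% of all genes tested.

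LGALS9. LGALS9 (gene 3965; chr17:25958174-25976586, plus strand) had an FPKM of 6.51 (5.97 to 7.09) from 537 counts in H2087 and 26.8 (25.8 to 27.9) from 2619 counts in H596. It was 4.12-fold higher in H596 (interval, 3.75 to 4.53), a difference of 1.89, and 6.10% of all tested genes differed by more in that direction. Near-identical copies, LGALS9B and LGALS9C, were at 0.101 and 0.307 in H2087 and at 0.948 and 1.52 in H596, and how reads shared among the copies were divided is uncertain. Galectin 9 has a pair of sugar-binding domains joined by a linker. NM_009587, the long form, has 96 bases more than NM_002308, which equals coding exon 5 of 11 at chr17:25970551-25970646 of hg19, plus strand, shown because it sets the length of the linker.
LGALS9 exon 5: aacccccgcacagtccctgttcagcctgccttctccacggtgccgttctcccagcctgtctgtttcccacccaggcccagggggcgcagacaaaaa

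The long form NM_009587 was at 4.09 in H2087 and 17.98 in H596, and NM_002308 at 2.01 and 6.35. Their shares of the gene were 62.8% and 30.9% in H2087 and 67.0% and 23.7% in H596. Both forms were higher in H596, 4.40-fold and 3.16-fold, so the difference was in the gene as a whole.

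Of 14 genes listed with the other galectins, 4 passed the filter. Of these, 1 was called higher and 1 lower, beside 18.2% and 14.2% of all genes tested, so this is no result about galectins. LGALS1, which binds T cell glycoproteins, was at 568 in H2087 and 4.99 in H596, a 114-fold lower value. LGALS8 was at 9.76 and 31.8 and was called higher, LGALS3 at 274 and 293 and LGALS3BP, a galectin-binding glycoprotein, at 197 and 308. Of 18 tested genes within 1 Mb of LGALS9, 6 were called higher and 1 lower, beside 18.2% and 14.2% of all genes tested. The nearest, KSR1, at -7.46 kb, was at 1.33 and 7.05 and was among the higher.

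**Figure D5:**
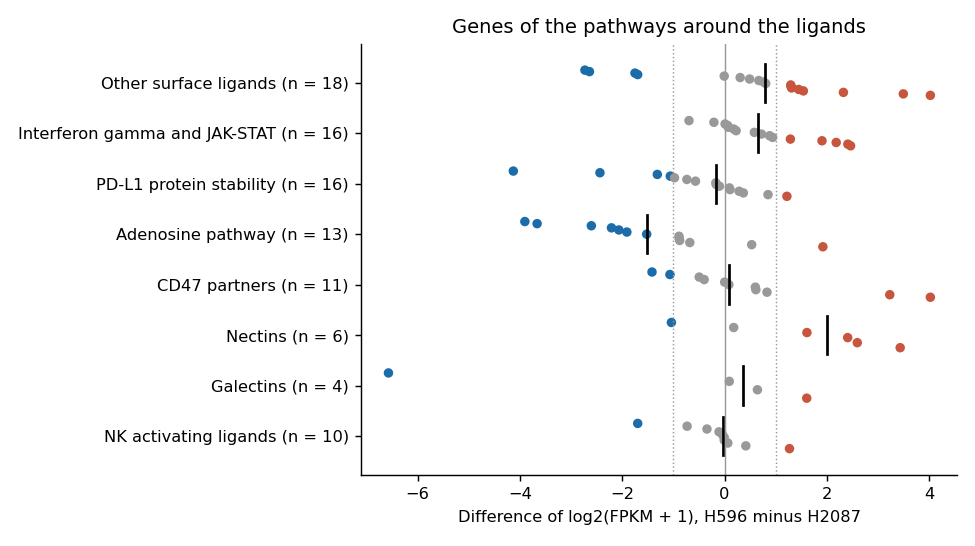
Difference of log2(FPKM + 1), H596 minus H2087, of the tested genes in 8 gene lists around the ligands, with calls of at least 2-fold in red (higher in H596) and blue (lower), other genes in grey and the median as a black bar. The adenosine list has a median of -1.52 and the nectin list one of 2.01; the other medians lie between -0.17 and 0.79.

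Receptors and immune cells. The receptors of these ligands belong mainly to immune cells. Of 19 checkpoint receptors, 17 had an FPKM under 1 in both libraries, and PDCD1, TIGIT, CTLA4, CD28 and ICOS had 0 counts in both, where 3 counts is the limit that a count of 0 allows. HAVCR2, which encodes TIM-3, had 3 and 0 counts, and CD226 had 4 and 0. Among the 17, more counts were given in H2087 to TNFRSF9 (144), CD96 (45) and LAG3 (22), which had 4, 0 and 0 in H596. The exceptions passed the filter through H596 alone: SIRPA, given above, and CD200R1, with 0 counts in H2087 and an FPKM of 2.44 in H596. Of 22 immune cell markers, 19 were under an FPKM of 1 in both, and the defining markers PTPRC, CD3D, CD3E, CD3G and MS4A1 had 0 counts in both. CD68, a lysosomal protein that epithelial cells also make, was at 128 in H2087 and 25.6 in H596. CD79A was at 3.72 and 0.0839, and CSF1R at 1.61 and 0 counts. Summed over the 22 markers, FPKM came to 135 in H2087 and 26.2 in H596, of which CD68 was nearly all. The ligand transcripts described here were thus measured in libraries in which the defining T and B cell markers were not detected.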

How the data were processed

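RNA-seq data of 1 library of untreated H2087 cells and 1 library of untreated H596 cells were used. The authors prepared stranded mRNA libraries and, per the labels, processed them with bcl2fastq 1.8.4, Trimmomatic, HISAT2 2.0.5 on hg19 and StringTie 1.3.3b. They deposited tables of 27685 genes and 63714 transcripts that hold, for either library, a column of estimated counts and another of FPKM. How the deposited estimated counts were made is not stated; among transcripts, count divided by FPKM and length was nearly constant in each library, so they were taken as rounded estimates from coverage. The FPKM deposited by the authors takes length and library size into account.

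The 8 genes were taken by symbol. Differences are log2(FPKM + 1) of H596 minus H2087, which understates changes of low genes, called at 2-fold among genes whose mean FPKM was 1 or more. No test was made, since each cell line had 1 library. Intervals are exact Poisson, binomial (of a ratio) and Clopper-Pearson intervals (scipy 1.17.1), and 3 counts is the limit for a gene count of 0. If both mates of a pair were counted, the intervals are too narrow. Exons and strand are from GENCODE release 44 on GRCh37, promoters from RefSeq on GRCh38.p14 (7 of the 8 genes matched). An exon was assigned when its length equalled the difference of the listed transcript lengths. Alternatives were TPM, TMM scaling (edgeR 4.0.16, R 4.3.3), centring, a pseudocount of 0.1, other filters and thresholds, and transcript values. The genes, the 14 lists and the rules were chosen with earlier results of these data known. The rule named, from each list, up to 8 genes with the largest differences or highest FPKM and defining markers at 0, from the neighbours the nearest and those called, and the 2 genes nearest in level. ICOSLG, IDO1, TNFRSF14, BTN2A1, BTN3A1, BTN3A3, TNFSF9, NCR3LG1, ENTPD1, ENPP3, ALPL, ADA, ADORA2B, THBS1, QPCTL, CADM1, LGALS9B, LGALS9C, HAVCR2, CD226, NAPSA, ULBP2 and ULBP3 were added after their values were seen. Some genes that the rule named are not reported here. The calculation of calls and intervals was checked on simulated Poisson counts with Python 3.11.15, numpy 2.4.6 and pandas 2.3.3. Such counts hold no variation between cultures and no error of the deposited estimates, so the check covers the calculation only.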

Additional observations from a re-analysis of the deposited data

How the results depend on the processing

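No paired analysis was possible because neither line was sequenced in more than 1 library, and no library could be left out. The difference of PVR turned from -0.14 to 0.031 with TPM and to 0.088 by the highest single transcript. The other 7 genes kept their direction under all 6 alternatives. The sum of listed transcripts equalled the gene value for every ligand gene, so that alternative could not change a direction. For PDCD1LG2, with 1 listed transcript, the highest single transcript could not either. VTCN1 ranged from 4.56 to 5.66, LGALS9 from 1.77 to 2.15, NT5E from -1.92 to -1.60, CD274 from -0.73 to -0.41, CD47 from 0.50 to 0.95, CD276 from 0.73 to 1.04 and PDCD1LG2 from 0.10 to 0.83. With a 4-fold threshold, 1 gene, VTCN1, was called higher and 0 lower, since fewer differences reach it; with TPM, CD276 was called as well. TPM moved the median difference of all tested genes from 0.12 to 0.30, and TMM scaling moved it to 0.0058. The lists were recomputed under the scalings after the data were seen: the adenosine list had 7 to 9 genes lower, and the protein stability list had a median of -0.17 as deposited and 0.0047 with TPM. With both mates counted, the interval of VTCN1 in H2087 would be 0.632 to 1.10. Depth limits PDCD1LG2, with 17 and 46 counts.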

Other observations

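Of 12 listed ligands that activate NK cells, 10 passed the filter, 1 was called higher and 1 lower in H596, beside 18.2% higher and 14.2% lower over all genes tested. Their median difference was -0.02. MICA, a ligand of the NK receptor NKG2D, was at an FPKM of 9.01 in H2087 and of 23.1 in H596, while MICB, another, was at 13.3 in both. ULBP1, ULBP2 and ULBP3, of the same group, were at 3.23, 9.86 and 2.92 in H2087 and at 1.55, 7.56 and 2.64 in H596. ICAM1, an adhesion molecule that immune cells bind, was at 17.1 and 17.97. The gene called lower was NCR3LG1.

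Genes whose levels in the 2 libraries were among the nearest to each ligand, by distance in log2(FPKM + 1) over these 2 points, were TAP2 and KLHDC2 for CD276, CARD16 and ST6GALNAC2 for VTCN1, SPNS2 and GPN3 for NT5E, PDRG1 and LRRC47 for CD47, RPUSD1 and PRPF38A for PVR, ATRN for LGALS9, and NEDD8-MDP1 and FAHD2CP for CD274. The distances were between 0.00951 and 0.182. PDCD1LG2 lay below the filter, and its nearest gene, MIR6875, was at a distance of 0.972. With 2 libraries, many genes can lie this close.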
